A study of Mus musculus with 8 samples.

Results

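Genes that make, iodinate and recycle the thyroid hormone precursor were followed in mouse thyroid follicular cell organoids (TFCOs), thyroid tissue and lung tissue. They were Tg, Duox1, Duox2, Duoxa1, Duoxa2 and Iyd, taken by symbol from the deposited table of 16119 genes, which writes them in capitals as TG, DUOX1, DUOX2, DUOXA1, DUOXA2 and IYD. All 6 were found, and all 6 passed the filter on low values that left 14703 genes to test. Bulk RNA sequencing covered 8 libraries in 4 groups of 2, all from wild type C57BL/6 mice with no treatment. Early and late passage TFCOs came from the lines mThy14 and mThy16, each grown in basement membrane extract with R-spondin 3, the TGFβ receptor inhibitor A83-01, the cAMP activator forskolin, EGF and FGF10. Per the labels, cells of a single thyroid were plated, so each line stands for 1 culture start, and its passages are not independent samples. The thyroid and lung tissues were 2 libraries each, with no statement of whether animals were pooled and no age beyond adult.

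Thyroglobulin (Tg) is the large secreted protein on whose tyrosines thyroid hormone is built, and it is stored in the lumen of the follicle. At the apical membrane of the follicular cell the dual oxidases Duox1 and Duox2 make hydrogen peroxide, and a peroxidase uses it to couple iodide to thyroglobulin. Each oxidase needs a maturation factor, Duoxa1 or Duoxa2, to leave the endoplasmic reticulum. When thyroglobulin is digested, Iyd removes iodide from the iodotyrosines that were not built into hormone, so that the iodide can be used again. Dual oxidases are also known from airway epithelium.

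The oxidases and their maturation factors lie together, as the map of the locus shows. In GENCODE M21 (build GRCm38), the 4 genes span 68726 bases of chromosome 2. Duox2 (ENSMUSG00000068452, chr2:122279247-122298449, reverse strand) and Duoxa2 (ENSMUSG00000027225, chr2:122298900-122302885, forward strand) start 450 bases apart and run away from each other. Duoxa1 (ENSMUSG00000027224, chr2:122302191-122313730, reverse strand) and Duox1 (ENSMUSG00000033268, chr2:122315672-122347972, forward strand) form the second such pair, with 1941 bases between their starts. Duoxa2 and Duoxa1 meet tail to tail and share 695 bases on opposite strands. Reads from that stretch can be told apart only where the counting used strand, which the sources used here do not state. Iyd (ENSMUSG00000019762) is at chr10:3540240-3554877 and Tg (ENSMUSG00000053469) at chr15:66670753-66850721, both on the forward strand. Tg overlaps Sla and Gm17140, which run on the other strand. Duox1 and Duox2 are similar enough that 7.95% of the 50-base stretches of Duox1 transcripts and 6.05% of those of Duox2 also occur in the other, so a small share of their reads could have been split between them. For the other 4 members no such stretch occurred in another gene.

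**Figure D1:**
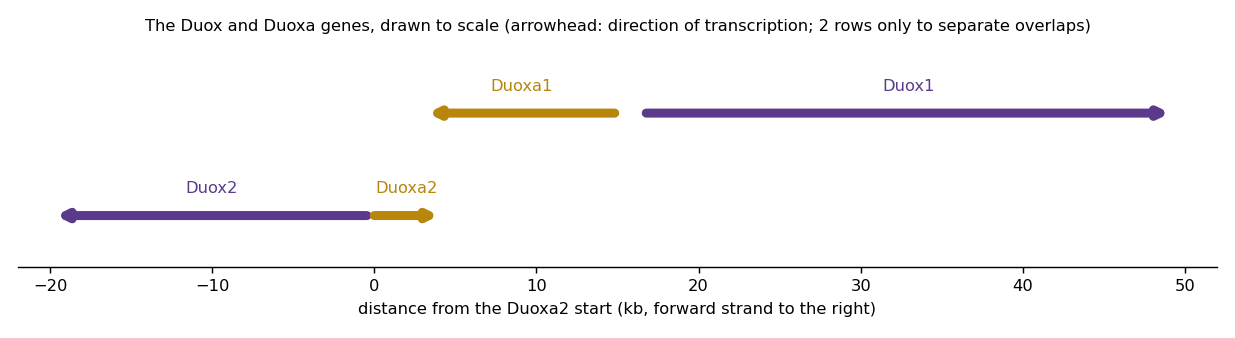
Map of the Duox and Duoxa genes to scale, with the distance from the Duoxa2 start in kb on the horizontal axis and arrowheads for the direction of transcription. Each oxidase and its maturation factor start close together on opposite strands, with 450 bases between the starts of Duox2 and Duoxa2 and 1941 between those of Duoxa1 and Duox1.

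Upstream sequence is shown for 3 members, because 2 of them are the maturation factors, which had unlike levels and ranges in TFCOs, and the other, Iyd, had the smallest fitted difference between TFCOs and thyroid tissue. The sequences are those of RefSeq (GRCm38.p6), whose windows of 250 bases before to 50 bases after a start matched 5 of the 6 members, all but Tg. They are printed as far as they lie outside annotated gene bounds, 5′ to 3′ on the gene's own strand. For Duoxa2 and Duoxa1 the printed stretch is shorter than the GENCODE bounds above would allow. The source of these cuts is not given here. For Duoxa2 (chr2:122298741-122298899, forward strand) the capitals mark matches to the GC box core GGGCGG, here on the other strand, and to the TATA box TATAAA. For Duoxa1 (chr2:122313764-122313980, reverse strand) they mark 2 overlapping GC box cores. For Iyd (chr10:3540024-3540239, forward strand) they mark the homeobox core TCAAGTG and, on the other strand, the cAMP response element core TGACG.
Duoxa2: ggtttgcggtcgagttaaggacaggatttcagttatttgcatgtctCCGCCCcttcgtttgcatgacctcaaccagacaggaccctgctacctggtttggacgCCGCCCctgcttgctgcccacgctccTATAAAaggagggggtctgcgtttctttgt
Duoxa1: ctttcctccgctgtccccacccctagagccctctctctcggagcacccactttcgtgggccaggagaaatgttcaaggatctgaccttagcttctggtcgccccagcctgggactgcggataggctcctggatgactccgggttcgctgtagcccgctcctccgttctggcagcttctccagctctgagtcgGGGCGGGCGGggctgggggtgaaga
Iyd: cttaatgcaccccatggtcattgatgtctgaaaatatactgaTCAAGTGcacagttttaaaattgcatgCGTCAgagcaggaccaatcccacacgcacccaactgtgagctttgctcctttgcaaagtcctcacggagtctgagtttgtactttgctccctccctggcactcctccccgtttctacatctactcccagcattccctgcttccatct

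Both strands of each whole window were searched for 6 short cores, and a match describes the letters only. The Duoxa2 window held TATAAA at position -30 from its RefSeq start and GGGCGG at -113 and -56. In Duoxa1 no TATAAA was found, and GGGCGG occurred at -58, -54, -10 and 6. The Iyd window held TCAAGTG at -208, TGACG at -181 and TATAAA at -29, the last of which lies inside the annotated gene and is not printed. The PAX core TCACGC was matched after the start in Duoxa2 and Duoxa1. None of the 6 cores, which also included the forkhead core TGTTTAC, was found in the windows of Duox1 and Duox2. Over 32851 windows of the same length the shares were 35.7% for GGGCGG, 20.8% for TGACG, 13.6% for TATAAA, 6.68% for TCACGC, 3.65% for TGTTTAC and 3.06% for TCAAGTG. The GC content of the 5 windows ran from 46.7% in Duox1 to 65.7% in Duoxa1, against a median of 52.7% over all windows.

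Values are read counts that the authors divided by 1 size factor per library, called normalized counts here. Between 9755081 and 16904865 reads per library had been counted on genes. The libraries fell into 2 sets that cut across the groups. The 4 TFCO libraries and thyroid tissue 1 formed one set, and thyroid tissue 2 and both lung tissues the other: 60 genes had no count in any library of 1 set while all libraries of the opposite set had at least 50, and the next best of 127 possible splits gave 4. What the sets are is not given in the sources used here. TFCOs were therefore also compared with thyroid tissue 1 alone, and lung with thyroid tissue 2 alone. TFCOs against lung cannot be compared within a set. The follicular transcription factor Pax8 was present in every TFCO and thyroid library (3925 to 8300 normalized counts) and at 0 in both lungs. Thyroid tissue also held other cell types. All 5 fibroblast, all 5 skeletal muscle and all 4 endothelial markers, 3 of 4 C cell and 3 of 3 parathyroid markers were above every TFCO library in both thyroid tissues. Parathyroid hormone (Pth) was at 0 in all TFCOs. The summed fibroblast markers were 91.6 to 247 in TFCOs, 28650 in thyroid tissue 1 and 24070 in thyroid tissue 2.

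Thyroglobulin was the most abundant transcript in both thyroid tissues and was also high in TFCOs, at a level that depended on the line. Thyroid tissue 1 had 1526002 and thyroid tissue 2 had 2175016 normalized counts, 12.0% and 17.2% of all counts in these libraries. In mThy14, Tg was at 126441 early and 64646 late. Line mThy16 had 12225 early and 9532 late. The lungs had 27.6 and 263. All 4 TFCO libraries were below both thyroid tissues and above both lungs. By abundance Tg ranked 6 and 8 among all genes in early and late mThy14, and 88 and 139 in early and late mThy16.

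Iyd, the iodotyrosine deiodinase, was the member closest to its tissue level. Early TFCOs had 3806 normalized counts in mThy14 and 2865 in mThy16, and late TFCOs had 8701 and 2920. The tissues had 9596 and 13486 in thyroid and 118 and 60.7 in lung. Every TFCO library was below both thyroid tissues, although late mThy14 reached 90.7% of thyroid tissue 1. In TFCOs and thyroid alike, Iyd was far above the lung libraries.

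Duox2, the main peroxide source of the thyroid, was low in counts. It was even between the thyroid tissues and between the lungs, but higher in mThy14 than in mThy16. Early TFCOs had 132 (mThy14) and 75.3 (mThy16) normalized counts, and late TFCOs had 143 and 80.5. Thyroid tissue had 643 and 623, and lung 11.7 and 9.44, from 14 reads in each lung. The 3 kinds of sample did not overlap. Duoxa2, its maturation factor, spread far more among TFCOs, with 94.2 and 15.8 early and 308 and 39.1 late for mThy14 and mThy16. Thyroid tissue had 778 and 1081, and the lungs had 2.51 and 0.674, which are 3 reads and 1 read. The TFCO libraries again lay between both tissues without overlap, but their own range was wide.

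Duox1 was the member that differed most between the thyroid tissues. It was at 373 in thyroid tissue 1 and at 71.0 in thyroid tissue 2, from 343 and 77 reads, a ratio of 5.26 with a 95% interval of 4.10 to 6.83. That interval, like all others here, was taken from the reads by the exact binomial method and covers counting error only. These tissues belong to different sets of libraries, and 17.5% of the genes tested differed more between them. The other 5 members differed by 0.51 log2 units or less in size between the same tissues. In TFCOs Duox1 had 114 and 22.8 normalized counts early and 66.6 and 32.4 late for mThy14 and mThy16. Early mThy14 was thus above thyroid tissue 2, and the groups overlapped. Lung tissue 1 had 1.68, from 2 reads, and lung tissue 2 had none, which allows up to 2.02.

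Duoxa1, the maturation factor of Duox1, was the least abundant member in TFCOs. It had 14.1 normalized counts in early mThy14, 5.94 in early mThy16, 2.08 in late mThy14 and 3.35 in late mThy16, which are 10, 6, 2 and 3 reads. Thyroid tissue had 71.8 and 75.6. Lung tissue 1 had no read, which allows up to 2.51, and lung tissue 2 had 2.02 from 3 reads. The late TFCOs were therefore near the level that 3 reads give. Duoxa1 passed the filter through both thyroid tissues and early mThy14 alone.

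**Figure D2:**
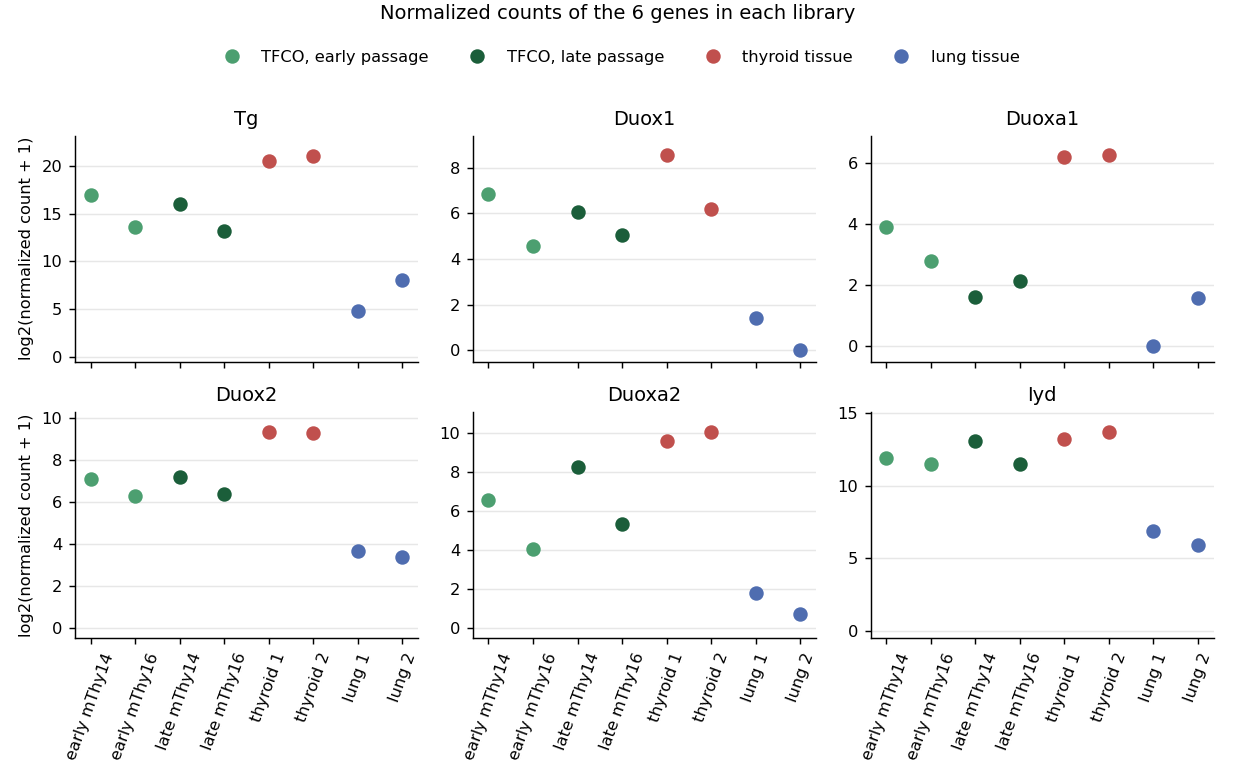
Normalized counts of the 6 genes in each of the 8 libraries, as log2(normalized count + 1), 1 point per library and with axes that differ between panels. Tg, Duox2, Duoxa2 and Iyd do not overlap between thyroid, TFCOs and lung, though Iyd of late mThy14 lies close to thyroid tissue 1. Duox1 of thyroid tissue 2 lies among the TFCOs, and late TFCOs of Duoxa1 lie close to lung.

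Set against exon length, the order of the members was similar in both kinds of thyroid sample. Such levels assume reads along the whole transcript, whereas the labels describe an adapted CEL-Seq library, which reads transcript ends, and the methods a stranded mRNA kit. In thyroid tissue the mean normalized count per kb was 208300 for Tg, 7111 for Iyd, 584 for Duoxa2, 93.5 for Duox2, 42.2 for Duox1 and 18.5 for Duoxa1. The means in TFCOs were 5990 for Tg, 2818 for Iyd, 71.8 for Duoxa2, 15.9 for Duox2, 11.2 for Duox1 and 1.60 for Duoxa1. Neighbours low in the order were not separate. In early mThy16 Duox2 was above Duoxa2 (11.1 and 9.95 per kb), in early mThy14 Duox1 was above Duox2 (21.6 and 19.5), and in thyroid tissue 2 Duoxa1 was above Duox1 (19.0 and 13.5).

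Whether TFCOs keep the expression of thyroid tissue was asked with limma on log2(normalized count + 1), after the passages of a line had been averaged, and p-values were adjusted over all 14703 genes by the Benjamini-Hochberg method. All 6 members had lower means in TFCOs, with differences from -1.48 to -5.87 log2 units, and 5 of 6 did not overlap with thyroid tissue, where 17.3% of all genes were lower without overlap. None passed an adjusted p of 0.05. Over all genes 3.65% passed, 3.05% as lower in TFCOs. At an unadjusted p under 0.05 there were 5 of 6 members, all lower, against 11.8% of all genes that were lower. These counts include Duoxa1, which among TFCOs reached the filter in early mThy14 alone and so passed it only with thyroid tissue. They are therefore a description. The median difference was -3.10 over the members and 0.05 over all genes tested. Fold changes on this scale understate the change of genes with few counts. In bulk samples, fewer cells of a type and less RNA per cell cannot be told apart.

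Tg had the largest difference of the 6. It was 53211 ± 59867 in TFCOs (SD, n = 2 lines) and 1850509 ± 458923 in thyroid tissue (SD, n = 2), a log2 difference of -5.87 with a standard error of 1.31 (limma, adjusted p = 0.062). Without early mThy14 its adjusted p was 0.0453. Against thyroid tissue 1 alone the difference was -5.61, with an adjusted p of 0.207. The TFCO levels were 8.29% and 4.24% of thyroid tissue 1 in early and late mThy14, and 0.801% and 0.625% in early and late mThy16.

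The oxidases had smaller differences than their maturation factors. Duox2 was 108 ± 42.1 in TFCOs and 633 ± 14.2 in thyroid tissue (SD, n = 2), with a log2 difference of -2.60 ± 0.63 (SE; limma, adjusted p = 0.0794). Each TFCO library held 11.7% to 22.2% of the Duox2 level of thyroid tissue 1. Duox1 had a log2 difference of -1.72 ± 1.19 (SE; limma, adjusted p = 0.438), which was -2.91 against thyroid tissue 1 and -0.53 against thyroid tissue 2. Its size therefore turned on the thyroid library chosen.

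The maturation factors had log2 differences of -3.61 ± 1.00 for Duoxa1 and -3.78 ± 1.05 for Duoxa2 (SE; limma, adjusted p = 0.114 and 0.115). Against thyroid tissue 1 alone these were -3.57 and -3.54. The gap between each factor and its oxidase was not tested. Without thyroid tissue 1, 2 members passed: Duox2 (adjusted p = 0.0446) and Duoxa1 (adjusted p = 0.0346). That fit has 1 thyroid library, from the other set than all TFCOs and assumed to vary like the other groups, and 27.8% of all genes passed in it. Treated as 4 separate samples, which they are not, the TFCO libraries gave 3 members past the threshold, namely Tg, Duox2 and Duoxa1. In that fit 8.99% of all genes passed, against 3.65% in the main fit.

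Iyd had the smallest difference, -1.48 ± 0.49 log2 units (SE; limma, adjusted p = 0.176), and -1.23 against thyroid tissue 1. Against thyroid tissue 2 the difference of Iyd was -1.72, and that of Duox1 was smaller, at -0.53. Pax8, set beside the members as a follicular transcript, was at 47.3% to 99.7% of thyroid tissue 1 in TFCOs and at 68.9% in thyroid tissue 2. Relative to Pax8 in the same library, Iyd was 46.0% to 115% in TFCOs, 116% in thyroid tissue 1 and 236% in thyroid tissue 2. For Tg the same measure was 243% to 1528% in TFCOs and 18390% and 38060% in thyroid tissue. Duox2 was 1.60% to 2.05% of Pax8 in TFCOs and 7.75% and 10.9% in thyroid. The markers of other cell types given above moved with this comparison, and their part in it was not tested.

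**Figure D3:**
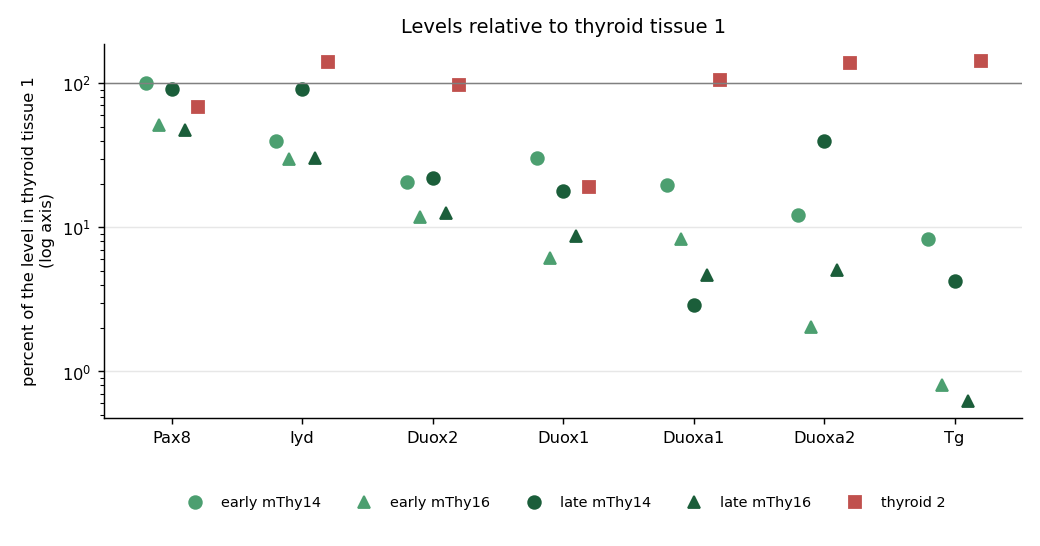
Level of Pax8 and the 6 genes in the 4 TFCO libraries and thyroid tissue 2 as a percent of thyroid tissue 1, on a log axis, with circles for mThy14, triangles for mThy16 and squares for thyroid tissue 2. Tg spans 0.625% to 8.29% in TFCOs, Iyd 29.9% to 90.7%, and Duox1 of thyroid tissue 2 is at 19.0%.

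Lung tissue served as the non-thyroid control. TFCOs were above both lungs in every member without overlap, as were 34.4% of all genes, but for Duoxa1 the lowest TFCO value (2.08, from 2 reads) is within the 2.51 that 0 reads allow in lung tissue 1 and next to the 2.02 of lung tissue 2, so the groups are not separate at this depth. Past the adjusted threshold 5 of 6 members rose, where 9.83% of all genes did. Duox1, Duoxa1 and Duoxa2 reached the filter of 10 normalized counts only outside lung. Duox2 reached it in lung tissue 1 (11.7) but not in lung tissue 2 (9.44), so it too passed only with libraries outside lung. The count of members is therefore a description. The log2 differences were 8.49 ± 1.31 for Tg, 5.57 ± 0.49 for Iyd, 4.93 ± 1.19 for Duox1, 4.78 ± 1.05 for Duoxa2 and 3.18 ± 0.63 for Duox2 (SE; limma, adjusted p = 0.00835, 0.00127, 0.031, 0.024 and 0.0179). Duoxa1 did not pass, with 1.82 ± 1.00 (SE; limma, adjusted p = 0.196). The median was 4.86 over the members and 0.05 over all genes. With either lung library left out, Iyd alone passed, with adjusted p = 0.014 without lung tissue 1 and 0.0265 without lung tissue 2. All TFCOs and both lungs lie in different sets of libraries, so the set and the tissue cannot be told apart.

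Thyroid against lung tissue gave the level that these genes have in the organ itself. All 6 members rose in thyroid, against 2.89% of all genes, and none overlapped, against 26.2% of all genes that were higher without overlap. These counts too include Duox1, Duox2, Duoxa1 and Duoxa2, which passed the filter only with libraries outside lung, and they are a description. Tg had the highest of all 14703 log2 differences, 14.36 ± 1.31 (SE; limma, adjusted p = 0.00348). Duoxa2 followed among the members with 8.57 ± 1.05, and Iyd with 7.05 ± 0.49 (SE; limma, adjusted p = 0.00913 and 0.00123). Duox1, Duox2 and Duoxa1 had 6.65, 5.78 and 5.43 (limma, adjusted p = 0.025, 0.00616 and 0.0285). The median was 6.85 over the members and 0.03 over all genes.

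For the members with at most 3 reads in a lung library, the size of the difference was also taken from reads. From pooled reads, thyroid had 281 times the lung level of Duox1 (95% interval 77.2 to 2325), 65.9 times that of Duoxa1 (22.1 to 323) and 631 times that of Duoxa2 (246 to 2318). Within the set that holds thyroid tissue 2 and both lungs, the log2 differences were 5.46 for Duox1, 5.46 for Duoxa1, 5.76 for Duox2, 7.30 for Iyd, 8.80 for Duoxa2 and 14.61 for Tg. In the fit without thyroid tissue 1, where the remaining tissue is assumed to vary like the other groups, 5 of 6 passed and Duox1 did not (limma, adjusted p = 0.053). With voom and in a fit of only the groups compared, 4 of 6 passed, without Duox1 (adjusted p = 0.0908 and 0.0752) and Duoxa1 (adjusted p = 0.0503 and 0.0724). Over all genes 4.57% and 1.88% passed in these fits, against 6.05% in the main fit. Without lung tissue 1, Iyd was the 1 member that passed (adjusted p = 0.0118), and without lung tissue 2, Iyd and Tg passed (adjusted p = 0.0201 and 0.0291).

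**Figure D4:**
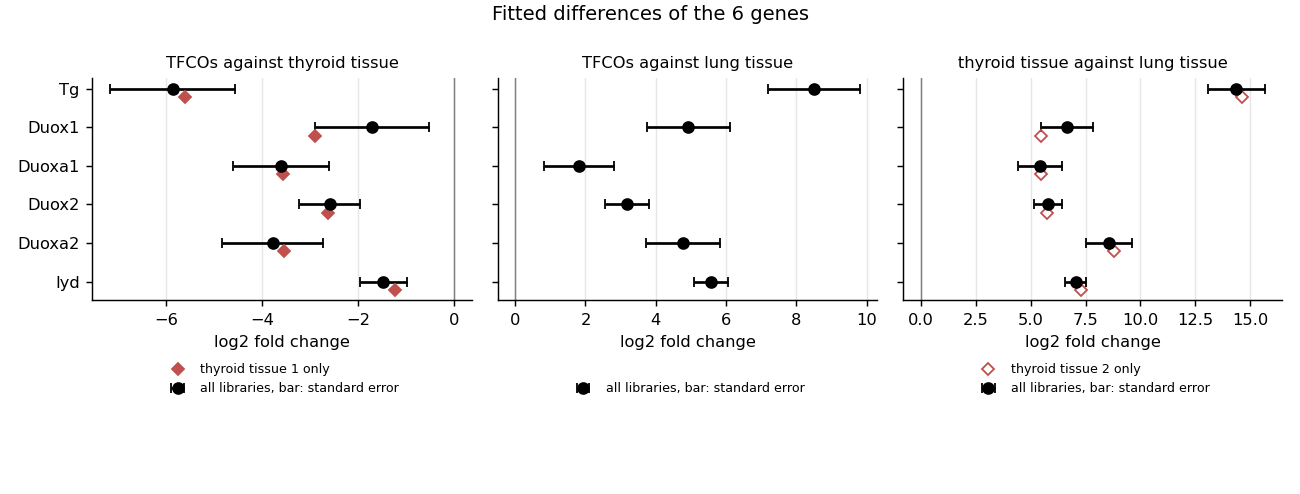
Fitted log2 fold changes of the 6 genes in 3 comparisons, with the first-named group minus the second on the horizontal axis, circles with standard errors for all libraries, and diamonds for the thyroid tissue of the same set of libraries alone. All 6 are below 0 in TFCOs against thyroid tissue and above 0 against lung, and Duox1 moves most when 1 thyroid tissue is used.

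Early and late passage were compared to ask whether expression holds in culture. No member passed the threshold, and over all genes 0.0% did, by limma on all 8 libraries. At an unadjusted p under 0.05 there were 166 genes, or 1.13%, and no member. All members had an adjusted p of 1.0. The log2 differences of late minus early were -0.66 ± 1.43 for Tg, -0.14 ± 1.21 for Duox1, 0.10 ± 0.64 for Duox2, -1.48 ± 1.03 for Duoxa1, 1.48 ± 1.20 for Duoxa2 and 0.61 ± 0.56 for Iyd (SE). The fit did not pair the libraries of a line, so these standard errors include the spread between lines. Both late libraries of Duoxa1 were below both early ones, as in 12.4% of all genes, and the other 5 members overlapped.

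Within each line the late library had more Duoxa2 and less Duoxa1 than the early one. Late Duoxa2 was 3.27 times the early level in mThy14 (95% interval 2.50 to 4.33) and 2.47 times in mThy16 (1.33 to 4.78). Of all genes, 1.25% were at least 2-fold higher in both lines. Duoxa1 had late to early ratios of 0.148 in mThy14 (0.0158 to 0.695) and 0.564 in mThy16 (0.0913 to 2.64), from at most 10 reads in a library. These intervals compare libraries, not passages.

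Iyd and Tg had late to early ratios further from 1 in mThy14 than in mThy16. Late Iyd was 2.29 times early Iyd in mThy14 and 1.02 times in mThy16. The corresponding Tg ratios were 0.511 and 0.780. Duox1 was at 0.585 of its early level in mThy14 (0.415 to 0.822) and at 1.42 times in mThy16 (0.795 to 2.58). Duox2 had ratios of 1.08 (0.824 to 1.42) and 1.07 (0.764 to 1.496), and both intervals include no change.

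Line mThy14 had more of 5 members than mThy16 at both passages, and 35.1% of all genes were higher in mThy14 at both. Tg was 10.3 times higher early and 6.78 times late. Duoxa2 was 5.94 and 7.87 times higher, so that both Tg and Duoxa2 were among the 1.11% of genes at least 4-fold higher at both passages. Duox1 was 5.00 and 2.06 times higher, Duox2 1.76 and 1.77 times, and Iyd 1.33 and 2.98 times. Duoxa1 was 2.37 times higher early (0.779 to 7.92) and 0.621 times as high late (0.0519 to 5.42). With 1 culture per line, and passages that are not independent, the difference between lines has no test.

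Ratios taken within a library do not depend on its size factor. The ratio of Tg to Iyd reads was 159 in thyroid tissue 1 and 161 in thyroid tissue 2. In TFCOs it was 33.2 and 4.27 early and 7.43 and 3.27 late for mThy14 and mThy16. Thyroglobulin was thus lower relative to the recycling enzyme in every TFCO library than in either thyroid tissue. The ratio of Duoxa2 to Duox2 was 1.21 (95% interval 1.08 to 1.35) and 1.74 (1.58 to 1.91) in thyroid tissue. In TFCOs it was 0.713 (0.513 to 0.986) in early mThy14, 0.211 (0.115 to 0.364) in early mThy16, 2.16 (1.76 to 2.67) in late mThy14 and 0.486 (0.315 to 0.738) in late mThy16. Late mThy14 was the single TFCO library with more reads of the maturation factor than of its oxidase, as in the tissues. These ratios are not corrected for transcript length. Per kb, early mThy16 was the single TFCO library with Duoxa2 below Duox2 (9.95 and 11.1). In early mThy14, for example, Duoxa2 was above Duox2 per kb (59.2 and 19.5).

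For the other pair the tissues were not alike. Duoxa1 reads were fewer than Duox1 reads in all TFCO libraries, with ratios of 0.0313 to 0.261. Thyroid tissue 1 gave 0.192 (0.146 to 0.251), inside that range, and thyroid tissue 2 gave 1.07 (0.771 to 1.47). Duox2 reads outnumbered those of Duox1 in all TFCO libraries, by 1.16 to 3.30 times, although the interval of early mThy14 (0.853 to 1.58) includes equal numbers. Thyroid tissue 1 had a ratio of 1.72 (1.51 to 1.97) and thyroid tissue 2 of 8.78 (6.93 to 11.3). Both ratios that involve Duox1 thus differed between the thyroid tissues, as Duox1 itself did.

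**Figure D5:**
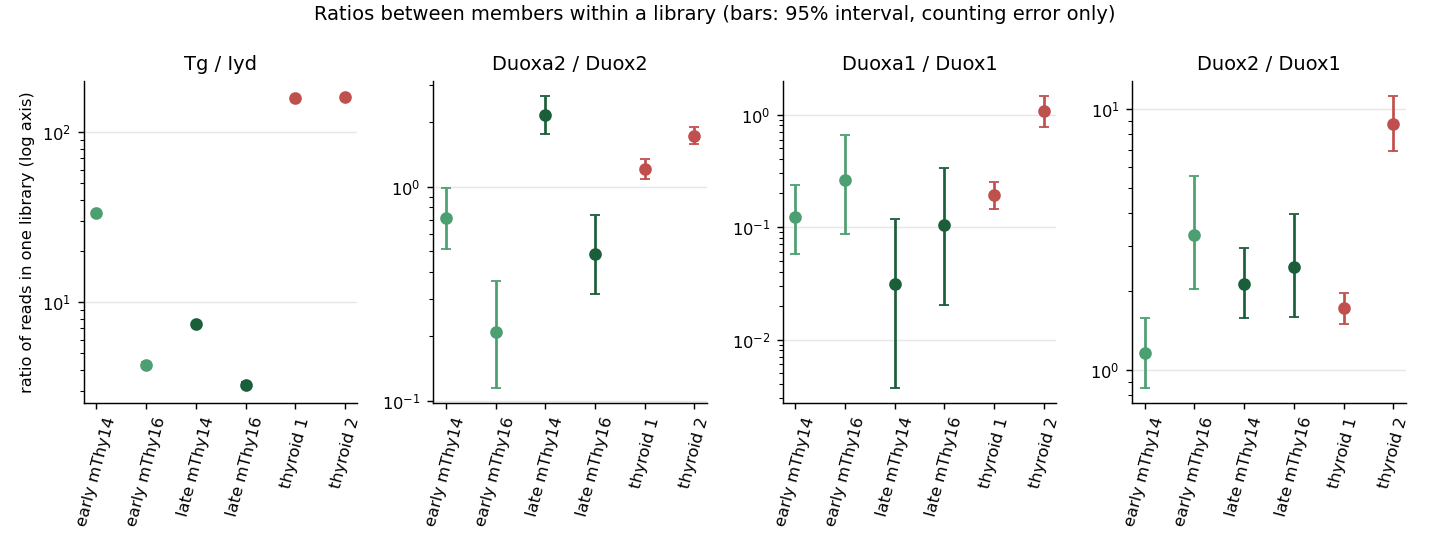
Ratios of reads between members within a library, on log axes, for 4 TFCO and 2 thyroid libraries, with 95% intervals that cover counting error only and are narrower than the points for Tg / Iyd. Tg / Iyd is 159 and 161 in thyroid and 3.27 to 33.2 in TFCOs, and the ratios with Duox1 separate the thyroid tissues.

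Over the 8 libraries the Pearson r of log2(normalized count + 1) between members ran from 0.710 (Duoxa1 and Iyd) to 0.976 (Tg and Duox2). These values share their libraries, include the steps between thyroid, TFCOs and lung, and are a description. Among the 4 TFCO libraries alone, which are too few for a correlation, Duoxa1 was highest in early mThy14, as were Tg and Duox1. Duoxa2, Duox2 and Iyd were highest in late mThy14, where Duoxa1 had 2 reads, against 3 in late mThy16. The genes outside the 6 whose pattern was most like each member were Igfn1, Slc26a7 and Fpgs for Tg (r = 0.991, 0.986 and 0.985), and Pcsk2, Slc26a7 and Elovl7 for Duox2 (r = 0.995, 0.989 and 0.987). Slc26a7, an anion transporter that carries iodide in follicular cells, thus appeared for both. For Duox1 they were Uqcrc1 and Mdh1 (r = 0.987 and 0.984), and for Duoxa1 Sorcs1, Slc12a8 and Rbfox1 (r = 0.994, 0.982 and 0.977). Ubash3b, Kcnip3 and Phkb were nearest to Duoxa2 (r = 0.981, 0.979 and 0.975), and Lcn8, Lbx1 and Fam131c to Iyd (r = 0.987, 0.985 and 0.983).

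Related genes were counted in the same fits. Of 19 further genes of hormone synthesis, transport and follicular identity, none rose and 2 fell in TFCOs against thyroid tissue, where 3.05% of all genes fell. Those that fell were the deiodinase Dio1 and Slc26a7, with log2 differences of -5.82 and -4.50 (limma, adjusted p = 0.0246 and 0.0259). The list median was -0.31. Of 12 relatives and subunits of the NADPH oxidases to which Duox1 and Duox2 belong, 11 were tested, none rose and 1 fell, against the same 3.05%. It was Cybb, with a log2 difference of -5.07 (limma, adjusted p = 0.0149), and the list median was -1.72. Cybb is the oxidase of phagocytes, and the summed leukocyte markers were 35.1 to 59.3 in TFCOs and 1024 and 1787 in thyroid tissue, with 3 of 5 markers above every TFCO library in both tissues and none of the 5 at 0 in all TFCOs. Their part in this result was not tested. None of 4 other haem peroxidases and none of 9 folding factors of the endoplasmic reticulum, where thyroglobulin is folded, passed in either direction. Over all genes 3.65% passed. The list medians were 1.06 and -0.10. No gene of these lists passed between passages, and over all genes 0.0% did.

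Against lung, where Duox1 and Duox2 were higher in TFCOs, the NADPH oxidase relatives were not. Of the 11 tested, none rose and 4 fell in TFCOs, where 13.5% of all genes fell, among them Cybb (-7.65) and Nox4 (-5.59) (limma, adjusted p = 0.00149 and 0.036), with a list median of -3.04. In thyroid against lung tissue none of the 11 passed. The summed leukocyte markers were 8706 and 5290 in lung. Of the 19 genes of the hormone pathway, 7 rose and 3 fell in TFCOs against lung, where 9.83% of all genes rose and 13.5% fell. Of those that fell, the lysosomal protease Ctsd (-11.21; limma, adjusted p = 0.0286), followed the sets of libraries, with at most 9.37 normalized counts in TFCOs and 19.6 in thyroid tissue 1 but 16900 in thyroid tissue 2 and 12410 and 9058 in lung. In thyroid against lung 7 of the 19 rose and 1 fell, where 2.89% of all genes rose and 3.16% fell. Of the 4 haem peroxidases, Lpo rose in TFCOs against lung, with a log2 difference of 3.95 (limma, adjusted p = 0.0428). Lpo had 21.1 to 38.0 normalized counts in TFCOs and 3.35 and 0.0 in lung, so it passed the filter only with libraries outside lung. Of the 9 folding factors, Pdia4 rose, with 2.89 (limma, adjusted p = 0.0159). None of either list passed in thyroid against lung.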

How the data were processed

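The authors deposited 1 table of normalized counts, a signal scaled by size factors. The study's methods give DESeq2 as the tool, a stranded polyA kit and the mouse genome, whereas the labels describe an adapted CEL-Seq library and the submitters' processing notes list BWA 0.6.2-r126 with builds mm10 and hg38. Values above 0 were whole multiples of 1 step per library for 100% of values (tolerance 0.01 reads), which gave reads, depths and exact binomial intervals.

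Genes that reached 10 normalized counts in 2 or more libraries were analysed as log2(normalized count + 1) in limma 3.58.1 (R 4.3.3) with a mean-variance trend. The passage comparison used all 8 libraries. Elsewhere passages of a line were averaged. The fits were also run on simulated data with independent libraries and a single spread setting for all genes. That run had no line effect and no sets of libraries, so it does not cover these features. TFCO lines pair early with late libraries (correlation of deviations 0.477). The labels do not say whether tissue libraries came from separate animals, so p-values may measure technical spread. No permutation test was run, since with groups of 2 the smallest p it allows is 0.3333.

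The 6 genes, the related lists, the markers and the likeness rule (the 3 highest r per member, of which 1 gene is not reported here) were chosen with earlier results of these data known. Alternatives were the pseudocount, filter, scaling, trend, voom, replicate block, samples used and leaving out each library. edgeR and DESeq2 on the recovered reads were not run, because the step of early mThy16 (0.990) is too close to 1 for its reads to be told from its values by an independent check. voom was run on the same reads.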

Additional observations from a re-analysis of the deposited data

Results flagged for a closer look

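Duox1 went opposite ways between passages in the TFCO lines: late minus early was -0.76 on the log2 scale in mThy14 and 0.49 in mThy16. The difference between the lines was not tested. It rests on 81 and 64 reads in mThy14 and on 23 and 29 reads in mThy16, and the 95% interval of the late to early ratio in mThy16 (0.795 to 2.58) includes no change.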

How the results depend on the processing

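Depth limits Duoxa1 in TFCOs (2 to 10 reads) and Duox1, Duoxa1 and Duoxa2 in lung (at most 3 reads per library). For TFCOs against thyroid tissue, where 0 of 6 members passed, 1 passed with a pseudocount of 5 (Duoxa1), 1 with scaling to the same Pax8 level in a fit without lung (Tg), 2 with voom (Tg and Duox2) and 3 with the 4 TFCO libraries as separate samples, and 0 to 2 when a library was left out. All 6 differences stayed below 0 in every setting run. For TFCOs against lung, 5 passed, 3 with voom and 1 to 5 when a library was left out. For thyroid against lung, 6 passed, 4 with voom, 4 with only the groups compared (both without Duox1 and Duoxa1) and 1 to 6 when a library was left out. The replicate block, in which thyroid and lung tissues share only a number (correlation of deviations -0.0726), gave 4 of 6 there, without Duox1 (adjusted p = 0.0715) and Duoxa1 (adjusted p = 0.129), and between passages 0 as without it. Over all genes the block moved the calls in thyroid against lung from 889 to 226.

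Between passages no member passed in any setting. Signs turned, in log2 units, for Tg (1.02 without early mThy14 and 0.72 without late mThy16), Duox1 (1.00 and 0.37 for the same libraries, and 0.07 with quantile normalization), Duox2 (-0.30 without early mThy16 and -0.31 without late mThy14) and Iyd (-0.18 without late mThy14). Leaving out a library gave ranges of -2.35 to 1.02 for Tg, -1.27 to 1.00 for Duox1, -0.31 to 0.51 for Duox2 and -0.18 to 1.40 for Iyd. For Duoxa1 the range was -2.04 to -0.92 and for Duoxa2 0.0 to 2.95, with 0.0 without late mThy14. When a TFCO library was left out, both lines were set against a single line, so passage and line cannot be told apart there. Within lines, late Tg was below early Tg in both, with ratios of 0.511 in mThy14 and 0.780 in mThy16. Over all genes, the 536 calls of TFCOs against thyroid tissue became 327 with Pax8 scaling, 220 with voom, 124 with only the groups compared, 1322 with separate TFCO libraries and 153 to 4085 when a library was left out. The share of higher calls among them was 16.4%, 31.5% with Pax8 scaling without lung, which shifted the median of all genes by 0.27, 32.0% with separate TFCO libraries and 47.5% without thyroid tissue 1. The 3435 calls of TFCOs against lung became 6979 with only the groups compared, 6625 with separate TFCO libraries and 248 to 6986 when a library was left out, and the 889 of thyroid against lung became 277 with only the groups compared and 58 to 4311 when a library was left out. With voom the share of higher calls moved from 42.1% to 30.4% in the former and from 47.8% to 36.2% in the latter. Quantile normalization shifted the median of all genes by 0.13, 0.27 and 0.11 log2 units in the comparisons with thyroid, with lung and between both tissues, scaling to the same total shifted it by -0.13 for TFCOs against lung, and Pax8 scaling by 0.12 between passages. The cause of these changes was not tested. edgeR and DESeq2 were not run.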
